A study of Mus musculus with 89 samples.

Results

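The genes described here encode the proteins of the cytosolic ribosome. They were chosen by mouse gene symbol alone, as Rpl or Rps followed by a digit, or Rplp0, Rplp1, Rplp2 or Rpsa, without Rps24 and without the Rps6k kinases. The rule found 49 genes, 30 with large subunit symbols and 19 with small subunit symbols. In the table of the herpes simplex virus (HSV) experiment they were 47 of 9542 genes and 74 of 27900 exon skipping events, and in the dCas9-SET2 table they were 6 of 3434 genes and 6 of 5608 events. Of these genes, 4 stood in both tables (Rpl10, Rpl14, Rps9 and Rps19). The symbols are a good but not a perfect guide to the standard ribosome: Rpl22l1, Rps27l and Rpl7l1 are paralogues of ribosomal proteins, and Rps19bp1 encodes a protein that binds Rps19. No symbol of a pseudogene had a listed event, and 43 further symbols that meet the rule and are not named as pseudogenes had none either.

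The study asked how the histone mark H3K36me3, which lies over transcribed gene bodies, bears on alternative splicing in a reward region of the mouse brain, the nucleus accumbens. The RNA samples came from nucleus accumbens punches of wild type C57BL/6 mice, labelled as 8 weeks old. Of these samples, 9 followed HSV-GFP, HSV-Set2 or HSV-R195G (3 each), where GFP is a fluorescent protein, Set2 is the methyltransferase that places H3K36me3, and R195G is the label of the third virus. The other 32 were runs after dCas9-SET2, a Cas9 that does not cut, fused to SET2, with the guide sgRNA-SRSF11 or the non-targeting guide sgRNA-NT. Each guide had 16 runs under 4 sample names. Neither table names its columns: the HSV table groups its libraries as a set of 2, called the pair here, and a set of 3, called the trio, and the dCas9-SET2 table holds 2 sets of 16 runs. No virus or guide was therefore assigned to a set, and the labels do not say whether libraries came from separate animals. The p-values thus measure at most the spread between these libraries, which may be technical. For inclusion that spread is shared across events, so an event's own spread does not enter its p separately.

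The libraries of the HSV table held 7428974 to 8638249 reads over all listed events. Depth was far lower per run of the dCas9-SET2 table, at 79799 to 106251 reads (first set) and 56946 to 84870 reads (second set). In both sets the fourth and eighth run carried identical counts in every event and were counted as 1, which left 15 runs. The HSV sets differ in more than 1 way. Reads scaled to 1000000 per library (RPM) over the deepest event of each gene, summed over 19 measured interferon response genes, were 129.7 and 270.5 in the pair and 3754 to 4174 in the trio, and all 19 were called higher (limma). Of 11 measured medium spiny neuron markers, 9 were called lower (7861 and 9810 against 3295 to 3543). Called higher were 7 of 9 oligodendrocyte, 5 of 10 microglia and 2 of 6 astrocyte markers. Over all 8201 genes, 13.2% were called higher and 9.49% lower. The astrocyte markers summed to 3622 and 3788 in the pair and to 3842 to 3886 in the trio. The 2 measured choroid plexus markers summed to 434.5 and 9967 in the pair and to 28.5 to 37.49 in the trio, so the second library of the pair stands apart. In the pair the sum was nearly all Ttr, at 405 and 9889 against 6.58 to 11.9 in the trio. Clic6 had 29.8 and 78.3 against 21.9 to 27.7. Of the 6 measured neuron markers 4 were called higher and 2 lower, and none of the 10 vascular markers was measured. These are bulk samples, in which fewer cells of a type and less RNA per cell cannot be told apart. What part these differences have in the values below was not tested.

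Ribosomal proteins are needed in equal numbers, 1 of nearly each kind per ribosome, and their mRNAs are among the most abundant in any cell. They are coordinated mainly at translation: their mRNAs begin with a terminal oligopyrimidine tract, a C at the cap followed by a run of C and T, through which the TOR kinase and Larp1 control their translation. Most of their genes are short, and in neurons their products are also found in dendrites and axons.

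Pyrimidines near the annotated start are shown for 5 genes. They are the genes called in the comparisons below (Rpl5, Rpl31, Rps2 and Rps9) and Rpl13a, the next by number of reads among the genes with a window. Each window runs from 30 bases before the annotated start to 20 bases after it, on the strand of the transcript, from RefSeq (GRCm38.p6). Capitals mark the longest unbroken run of C and T that comes within 15 bases of the start.

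Rpl5: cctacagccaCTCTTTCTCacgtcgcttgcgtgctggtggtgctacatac

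Rpl31: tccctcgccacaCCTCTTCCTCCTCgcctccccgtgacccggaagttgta

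Rps2: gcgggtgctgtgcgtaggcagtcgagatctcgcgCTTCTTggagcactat

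Rps9: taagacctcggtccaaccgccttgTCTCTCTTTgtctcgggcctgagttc

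Rpl13a: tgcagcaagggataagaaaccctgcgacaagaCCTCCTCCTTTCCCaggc

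The windows lie at chr5:107900498-107900547 (plus strand), chr1:39367821-39367870 (plus), chr17:24720033-24720082 (plus), chr7:3704011-3704060 (plus) and chr7:45128726-45128775 (minus), in the same order. The run of Rps9 spans the annotated start, and that of Rpl13a begins 2 bases after it, whereas those of Rpl5 and Rpl31 end before it. In Rpl31 a shorter run, in lower case, follows after a g and spans the annotated start. Rps2 has a short run of 6 bases that begins 4 bases after the start, close to the median longest run of 5 over all windows. At none of these 5 annotated starts was a C followed by 4 further pyrimidines. Of the 49 genes, 38 had a window in the RefSeq table, 45 windows in all. A run of at least 8 pyrimidines within reach of the start, searched on the transcript strand only, was present in 21 of 45 windows (46.7%), against 17.6% of all 32851 windows. The annotated start was a C with at least 4 further pyrimidines in 8 windows (17.8%), against 2.51% of all. Annotated starts can be some bases off, and a match is a description of the letters only.

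Most listed exons of ribosomal protein genes were included in nearly every transcript in the HSV table, and a few were left out of nearly every one. Inclusion here is the share of transcripts that contain the exon, from the reads of each form divided by the length of that form. Of the 74 events, 71 had a mean of at least 20 reads per library, and their median inclusion was 99.95%, against 98.69% over all 23498 events of that depth. Inclusion was at least 99% in 63 of the 71 events (88.7%, against 44.4% of all events). It was 95 to 99% in 2 and below 5% in 6 (8.45%, against 4.66% of all events). Of these 6, 3 are overlapping forms of the same exon of Rps27l. Among events with a mean of at least 1000 reads the share below 5% was 4.76%, against 3.09% of all. No ribosomal protein event lay between 5 and 95%, where 24.1% of all events lay, but 5.14% of all events with a mean of at least 1000 reads. The other 3 events, all in Rpl13a, had fewer reads.

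These events were also much deeper than most, with a median of 3804 reads per library against 133.6. Every listed event of that depth had at least 1 skipping read in some library, so the skipping level that can be listed depends on depth. Among events with a mean of at least 1000 reads, the median inclusion was 99.97% for 63 ribosomal protein events and 99.91% for all 1458. Of the 63, 60 (95.2%) were included to at least 99%, against 83.1% of all. Depth was still not matched, at a median of 4077 reads per library for the ribosomal protein events against 1645. Of the 71 exons, 26 (36.6%) were a multiple of 3 nt long, so that a coding exon could be left out in frame, against 44.9% of all.

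Among mostly included exons, skipping reads were rare in every library. Summed over the 60 deep events with inclusion of at least 95%, there were 181 skipping reads in the first library of the pair, 144 in the second, and 152, 194 and 159 in the trio. Per 1000 reads this was 0.646 (exact 95% interval 0.555 to 0.747) and 0.463 (0.39 to 0.545) in the pair. In the trio it was 0.523 (0.443 to 0.613), 0.753 (0.651 to 0.867) and 0.594 (0.505 to 0.693). The sets overlap: the lowest value and the second highest are both in the pair. The corresponding 1279 events of other genes gave 1.25 to 1.37 per 1000 in all 5 libraries. The median event had 0.16 skipping reads per 1000 among ribosomal protein genes and 0.38 among the others. Deep ribosomal protein events have more reads than other deep events, so lower levels can be listed among them. What part depth has in these differences was not tested. The exact intervals cover counting error only, since reads without molecular identifiers are not independent molecules.

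The skipping reads were concentrated on a few exons. Rpl10, a large subunit protein added late in assembly, had a 163-nt exon with the skipping reads 38 and 28 in the pair and 18, 30 and 30 in the trio, beside 6822 to 8180 inclusion reads. This is a skipping level of 1.07% and 0.709% against 0.506%, 0.909% and 0.853%. The sets overlap, and the difference did not pass the test (adjusted p = 0.838, limma). The 41-nt exon of Rpl17, a large subunit protein near the exit of the peptide tunnel, was skipped at 1.32% and 0.776% against 0.542%, 0.972% and 0.794% (adjusted p = 0.639, limma). The first library of the pair was the highest for both exons and the first of the trio the lowest. Rpl27a, another large subunit protein, had 2 such exons: its 175-nt exon was skipped at 0.641% and 0.534% against 0.39%, 0.388% and 0.667%, with overlapping sets. Its 76-nt exon was skipped at 0.648% and 0.0749% against 0.416%, 0.345% and 0.196%, so that the highest and the lowest level were both in the pair.

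**Figure D1:**
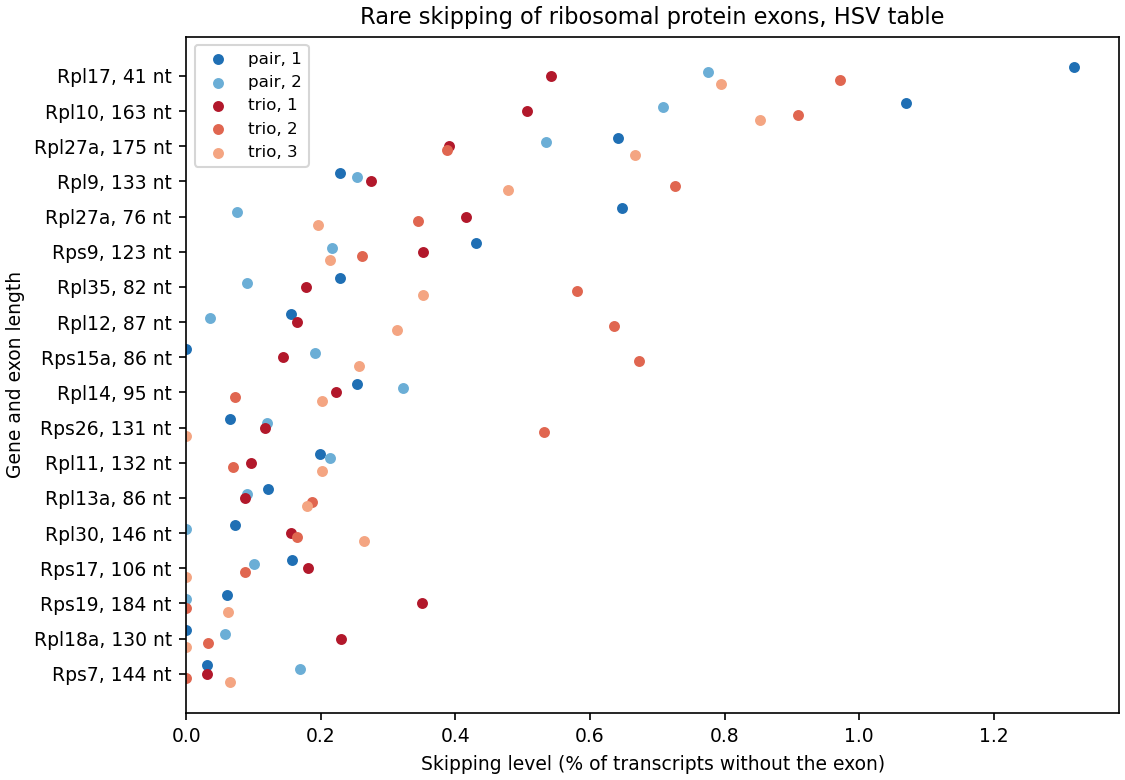
Skipping level in percent (x axis) of the 18 tested ribosomal protein exons with inclusion of at least 95% (y axis, gene and exon length), 1 point per library, blue for the pair and red for the trio. Every point is at or below 1.32%, and the exons of Rpl17 and Rpl10 are the most skipped.

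Several other exons were skipped most in the second library of the trio. The 87-nt exon of Rpl12, a protein at the base of the ribosomal stalk, was skipped at 0.155% and 0.0346% against 0.165%, 0.636% and 0.313%, so that the pair lay below all 3 others. Its difference did not pass the test (adjusted p = 0.41, limma), with 14 skipping reads in its highest library. The 133-nt exon of Rpl9, a large subunit protein, stood at 0.228% and 0.254% against 0.274%, 0.726% and 0.478% (adjusted p = 0.53, limma), also without overlap. For Rps15a, a small subunit protein, the 86-nt exon had no skipping read in the first library and levels of 0.191%, 0.143%, 0.673% and 0.257% in the others. The plot of skipping levels shows the same library as the rightmost point for Rpl35 and Rps26.

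At the other end, 16 of the 60 deep and mostly included events had 1 skipping read in all 5 libraries together, and none had 0. The 3 with the highest inclusion are given here. The 75-nt exon of Rplp1, an acidic stalk protein that recruits elongation factors, had 1 skipping read in all 5 libraries beside 9936 to 12606 inclusion reads per library, a mean inclusion of 99.998%. The 126-nt exon of Rpl31, at the exit of the peptide tunnel, also had 1 (99.996%), and so had the 111-nt exon of Rpl19 (99.995%). The paralogue gene Rpl22l1 had 2 skipping reads over its 122-nt exon, both in the second library of the pair. A library with 0 skipping reads at this depth still allows a level of up to 0.21 to 0.23% for that exon (3 counts). Rpl7l1, the paralogue of Rpl7, was read far less: its 109-nt exon was skipped by 2 and 1 reads in the pair and by 1, 0 and 0 in the trio, among 149 to 204 reads, and a count of 0 allows 3.0 to 3.4% there.

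Inclusion between 95 and 99% was found in 2 shallow events. The 122-nt exon of Rps9 had 50 to 59 inclusion reads per library and 1, 3, 0, 1 and 0 skipping reads, with a mean inclusion of 97.046%. The 50-nt exon of Rpl18 had 50 to 72 inclusion reads and 0, 0, 1, 3 and 0 skipping reads (98.186%). With so few reads the exact 95% intervals of single libraries reach down to an inclusion of 77.9% for Rps9 and 81.4% for Rpl18. Neither had the 10 reads of the rarer form that the test required. The 114-nt exon of Rpl13a, with a mean of 17.2 reads, was below the depth used for counts; it had 10, 12, 18, 25 and 11 inclusion reads and 0, 2, 6, 2 and 0 skipping reads.

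The 6 events below 5% are exons that most transcripts leave out, in 4 genes. The 45-nt exon of Rpl27, a large subunit protein, had 2 inclusion reads in the second library of the pair and none in the other 4 libraries, beside 1996 to 2477 skipping reads. Rps27l, the p53-responsive paralogue of Rps27, had 3 overlapping forms of 1 exon (75, 77 and 79 nt) that share their skipping reads, so they are not separate evidence. The 79-nt form had 2, 0, 2, 0 and 2 inclusion reads against 147, 358, 245, 228 and 235 skipping reads. The remaining events were better covered: an exon of Rps9 and an exon of Rps19.

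The 174-nt exon of Rps9 (chromosome 7, 3657610 to 3657783 on the plus strand as the table gives it) was the single ribosomal protein event called between the sets, where 3.69% of all tested events of the table were called and 1.69% as higher in the trio. Rps9 lies at the mRNA entry side of the small subunit. The exon had 23 and 60 inclusion reads in the pair and 111, 98 and 100 in the trio, beside 2548 to 2903 skipping reads. Its inclusion level was 0.3992% (exact 95% interval 0.253 to 0.599) and 0.9478% (0.723 to 1.22) against 1.812% (1.49 to 2.18), 1.743% (1.41 to 2.13) and 1.785% (1.45 to 2.17). Every library of the trio was higher, the sets do not overlap, and the libraries of the pair differ from each other more than those of the trio. The p below does not take up that difference within the pair separately, because the spread is shared across events. The difference was 0.88 on the natural-log logit scale (SE 0.18, adjusted p = 8.42e-05, limma), a 2.41-fold higher odds of inclusion. The authors' deposited table gave it an FDR of 0.000111. Without the first library of the pair, the difference was 0.64 and the adjusted p 0.0875 (limma), and without the second it was 1.49 (adjusted p = 0.000223, limma). Without weights the difference was 1.06 and its adjusted p 0.466 (limma), in a fit that called 0 of 7754 events. The direction was thus kept, but the call needs that first library and the weighting.

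In all, 20 events in 17 of these genes had enough reads of the rarer form to be tested, and 1 was called. A count of 1 in 20 (5.0%) is near the 3.69% of all 7754 tested events, so it says nothing particular about these genes. After the called exon, the next smallest p was that of the 81-nt exon of Rps19, also higher in the trio (unadjusted p = 0.0165, limma). This exon lies on chromosome 7, 25671126 to 25671206, plus strand. Rps19, a small subunit protein needed for maturation of the small subunit RNA, is known for its mutations in Diamond-Blackfan anaemia.

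The exon of Rps19 had 90 and 80 inclusion reads against 127, 96 and 106, beside 3467 to 4335 skipping reads. Its inclusion was 1.42% (exact 95% interval 1.14 to 1.74) and 1.184% (0.939 to 1.47) against 1.903% (1.59 to 2.26), 1.766% (1.43 to 2.15) and 1.724% (1.41 to 2.08). Again all 3 libraries of the trio lay above both others. The difference of 0.33 (SE 0.14) on the logit scale did not pass the test (adjusted p = 0.228, limma). For the other 18 tested events the adjusted p ran from 0.41 to 0.995 (limma), with inclusion higher in the trio in 9 and lower in 9.

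**Figure D2:**
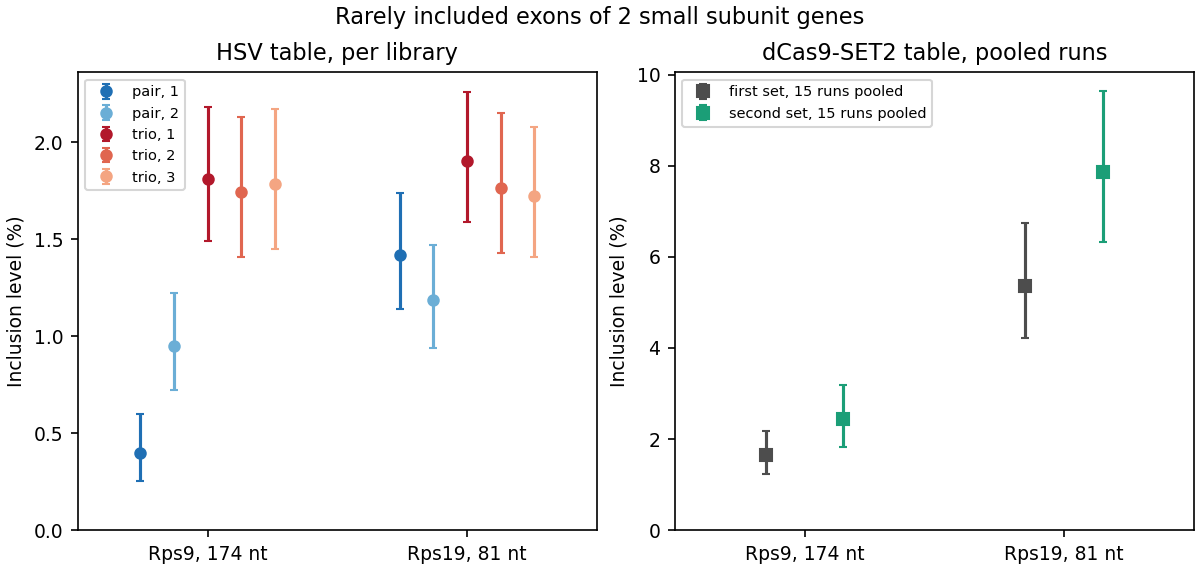
Inclusion level in percent (y axis) of the 174-nt exon of Rps9 and the 81-nt exon of Rps19 (x axis), with exact 95% intervals of counting error. Left, the 5 libraries of the HSV table, where all 3 libraries of the trio lie above both others for each exon; right, the 2 sets of 15 pooled runs of the dCas9-SET2 table, with Rps9 at 1.655% and 2.441% and Rps19 at 5.367% and 7.851%.

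The same 2 exons were listed in the dCas9-SET2 table. The match rests on identical exon length and identical distances to both neighbouring exons, since the coordinates of the tables differ, and it also held for the 163-nt exon of Rpl10 and the 95-nt exon of Rpl14. In that table the exon of Rps9 had 53 inclusion and 1142 skipping reads over the runs of the first set and 55 and 797 in the second. Its pooled inclusion was 1.655% (exact 95% interval 1.24 to 2.17) and 2.441% (1.83 to 3.19), with runs from 0.463 to 3.68% and from 0.0 to 7.72%. The runs of the 2 sets overlap widely. The authors' deposited table gave an adjusted p of 0.574 and a dPSI (difference of inclusion) of 0.00377.

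The exon of Rps19 had 73 inclusion and 708 skipping reads in the first set and 90 and 581 in the second, a pooled inclusion of 5.367% (4.21 to 6.74) and 7.851% (6.32 to 9.63). Single runs had 1.13 to 9.48% (median 4.87%) and 1.59 to 16.1% (median 6.98%). The runs of the sets overlap, at 25 to 72 reads per run. In the authors' deposited table its adjusted p was 0.348 and its dPSI 0.0245. The level was above that of the HSV table in both sets, although the tables came from separate experiments and no test was made between them.

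The other rare exons of that table were in Rps27 and Rps19bp1. The 113-nt exon of Rps27, a zinc finger protein of the small subunit, was included in 13 reads of the first set and 11 of the second, beside 1047 and 1007 skipping reads, or 0.5765% and 0.5075%. The 136-nt exon of Rps19bp1, which encodes a partner of Rps19 and of the deacetylase Sirt1, had 4 and 6 inclusion reads beside 80 and 63, or 2.063% (0.557 to 5.31) and 3.857% (1.4 to 8.45). Both pairs of intervals overlap. The authors' deposited adjusted p was 0.231 for Rps27 and 1.0 for Rps19bp1.

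The 2 exons of that table that are nearly always included are the ones of Rpl10 and Rpl14. Rpl10 had 4 skipping reads beside 3252 inclusion reads in the first set and 9 beside 2844 in the second, a skipping level of 0.324% and 0.831%. Libraries of the HSV experiment skipped the same exon at 0.506 to 1.07%. Rpl14, a large subunit protein, had 13 skipping reads beside 4358 and 10 beside 3085 (0.581% and 0.631%), where the HSV libraries gave 0.0722 to 0.322%. None of the 6 events was called in the authors' deposited table, against 4.96% of 5287 events with an adjusted p, and the smallest adjusted p was the 0.231 of Rps27.

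Read depth over the events gives a partial view of expression. For each gene, the reads over its deepest event were scaled by TMM to RPM, and for comparison between genes also divided by the effective length of the forms (per 100 nt). By that density Rplp1 was first, at 1210 and 1380 in the pair and 1340, 1190 and 1370 in the trio (RPM per 100 nt). Next was Rpl13a, a large subunit protein also known for silencing inflammatory mRNAs outside the ribosome, at 815 and 910 against 940, 867 and 913. Rpl31 followed at 863 and 865 against 702, 710 and 785, and its range overlaps that of Rpl13a. Of the 47 genes, 31 had a mean density of at least 400, and the steps between neighbours in that order were mostly smaller than the spread over libraries.

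**Figure D3:**
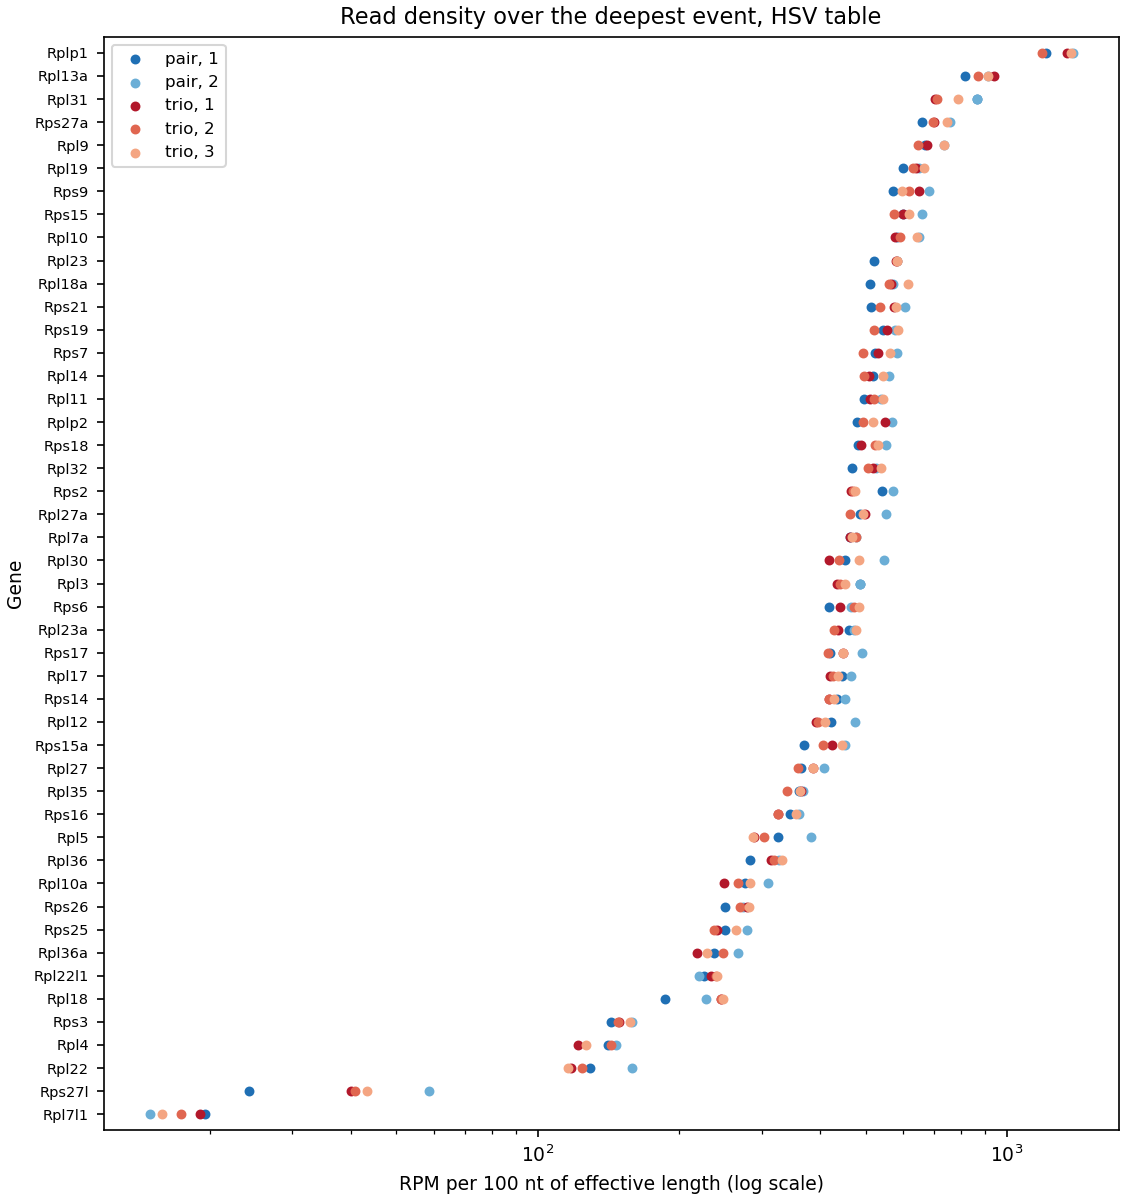
RPM per 100 nt of effective length over the deepest event (x axis, log scale) for 47 ribosomal protein genes (y axis, ordered by mean), 1 point per library. Rplp1 has the highest mean, 1300, and Rpl7l1 the lowest, 17.3, and for most genes the points of both sets lie among each other.

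The genes with the fewest reads were Rpl7l1 (a mean density of 17.3), Rps27l (41.4) and Rpl22 (129). Rpl7l1 and Rps27l are the paralogues outside the standard ribosome, and both stood below every standard member. Rpl22l1 did not: its density of 233 was above the 129 of Rpl22, the subunit it can replace. Rpl22l1 stood at 226 and 221 against 234, 240 and 241, above every library of Rpl22 (129 and 159 against 118, 124 and 116). Rps27l was the most uneven gene of the list, with 36.7 and 88.2 RPM within the pair and 60.1, 61.4 and 64.9 in the trio. Densities depend on which event of a gene is listed, and reads of near-identical processed copies of ribosomal protein genes cannot be told apart here, so the order is uncertain.

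Between the sets, coverage of ribosomal protein genes moved little. Of the 47 genes, 3 were called lower in the trio (Rps2, Rpl31 and Rpl5) and 0 higher at an adjusted p below 0.05 (limma). Over all 8201 genes 22.7% were called, 9.49% as lower and 13.2% as higher, and among 794 genes with a mean of at least 1000 reads 43.1% were called. The share of ribosomal protein genes called was thus below the background in either form. All 47 differences lay within 0.3 on the log2 scale of 0, as did 52.2% of all genes and 60.8% of the deep genes. The median absolute log2 difference was 0.073, against 0.29 over all genes and 0.22 over the deep ones.

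Rps2, a small subunit protein that lines the mRNA entry channel, had 2616 and 2764 RPM in the pair and 2255, 2265 and 2300 in the trio. The trio lay below both others without overlap. The log2 difference was -0.24 (SE 0.07, adjusted p = 0.0228, limma), so that coverage fell by 15.5%. Rpl31 stood at 2381 and 2388 against 1937, 1959 and 2167 RPM, again without overlap (log2 difference -0.24, SE 0.07, adjusted p = 0.036, limma). Rpl5 binds the 5S RNA of the large subunit and, with Rpl11, the p53 regulator Mdm2. Its RPM were 926 and 1093 against 823, 867 and 821 (log2 difference -0.27, SE 0.09, adjusted p = 0.0415, limma), and here too every library of the trio was lower. Its partner Rpl11 differed by 0.02 (SE 0.07), at 1401 and 1523 against 1438, 1468 and 1536 RPM.

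These calls did not hold under every alternative, although the direction did. Without any 1 library of the trio none of the 3 passed, while the log2 differences stayed at -0.236 to -0.249 for Rps2, -0.25 to -0.289 for Rpl5 and -0.21 to -0.29 for Rpl31. Without the second library of the pair, Rpl5 stood at -0.147 (adjusted p = 0.184, limma), and Rpl18 (log2 difference 0.396, adjusted p = 0.000319, limma) and Rps27l (0.758, adjusted p = 0.0043, limma) were called higher. Without the first, Rps27l was called lower (-0.507, adjusted p = 0.0432, limma). With scaling by the total of all listed reads 1 gene was called, Rpl18 as higher (log2 difference 0.303, adjusted p = 0.0343, limma). A minimum mean of 100 reads per library also gave Rpl18 as higher (log2 difference 0.272, adjusted p = 0.0496, limma). Under that filter Rps2 and Rpl31 were still called lower, but Rpl5 was not (log2 difference -0.249, adjusted p = 0.0587, limma). Rpl18, a large subunit protein, had 644 and 784 RPM against 847, 844 and 853, which do not overlap. By the TMM scaling it missed the threshold (log2 difference 0.26, SE 0.09, adjusted p = 0.0581, limma). It was the 1 gene of the 47 higher at an unadjusted p below 0.05 (limma), where 4 were lower. Of all 8201 genes, 1573 were higher and 1231 lower at that level, a larger share in each direction. The fourth of the 4 lower ribosomal protein genes was Rpl22, with 354 and 437 against 325, 341 and 320 RPM (log2 difference -0.26, SE 0.10, adjusted p = 0.084, limma). Pair and trio were free of overlap in 10 of the 47 genes, 8 lower and 2 higher (Rpl18 and Rpl22l1), against 49.8% of all genes, 23.8% lower and 26.0% higher. Among genes with a mean of at least 1000 reads it was 63.5%, with 37.5% lower and 25.9% higher.

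**Figure D4:**
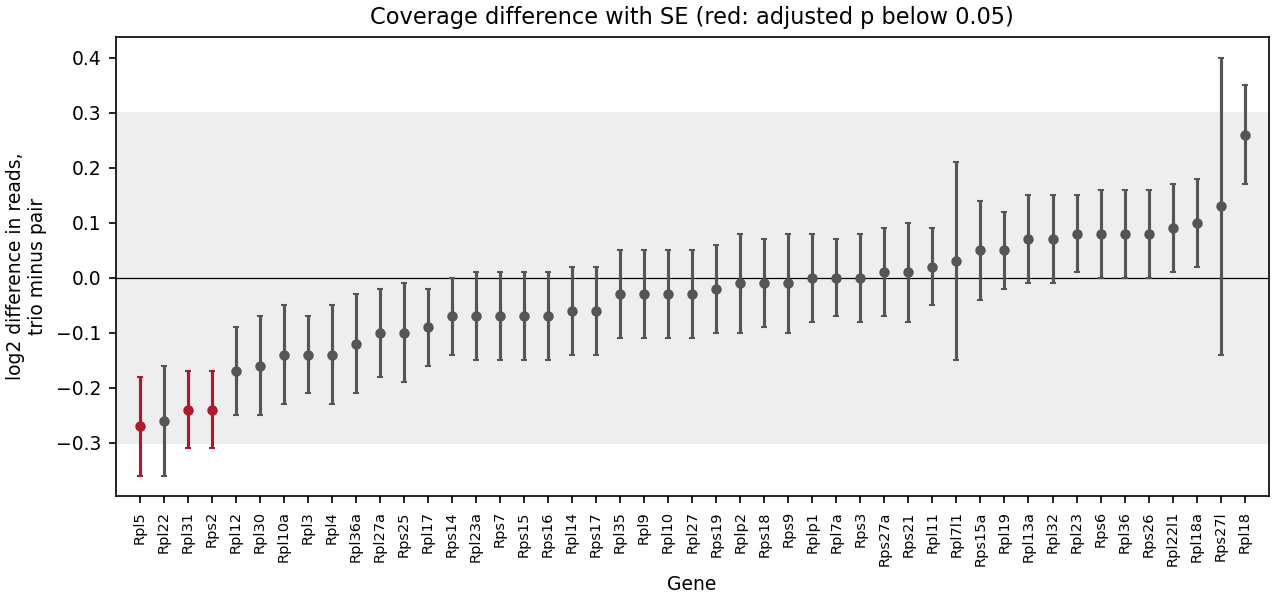
Log2 difference of reads over the deepest event, trio minus pair, with its SE (y axis), for 47 ribosomal protein genes ordered by the difference (x axis). The grey band marks 0.3 on either side of 0, all points lie within it, and the called genes Rpl5, Rpl31 and Rps2 are in red.

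The subunits did not stand apart from each other. Among 30 large subunit symbols the median log2 difference was -0.03, from -0.27 to 0.26, with 19 lower and 2 called. Among 17 small subunit symbols it was -0.01, from -0.24 to 0.13, with 10 lower and 1 called. Rps6, the small subunit protein phosphorylated in active neurons, had 1239 and 1385 RPM against 1307, 1403 and 1436, with overlapping sets (log2 difference 0.08, SE 0.08). Rps27a, which is made as a fusion with ubiquitin, differed by 0.01 (SE 0.08). The stalk proteins Rplp1 and Rplp2 differed by 0.00 and -0.01.

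Differences between libraries of 1 set were as large as those between the sets. In the pair 44 of 47 genes were higher in the second library than in the first, with a median log2 ratio of 0.16, whereas 47.6% of all genes were. In the trio 39 of 47 were higher in the third library than in the second (median log2 ratio 0.08, against 50.2% of all genes). The 47 genes summed to 56814 and 62763 RPM in the pair and to 57679, 56753 and 60160 in the trio. The sets overlap: the second library of the pair was the highest of all 5, and the first nearly the lowest. That second library is also the one with the choroid plexus markers at a summed 9967 RPM, nearly all of it Ttr. Without it the median log2 difference of the 47 genes was 0.03, and without the first library it was -0.11, so the direction of the group turns on which of these libraries is kept.

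**Figure D5:**
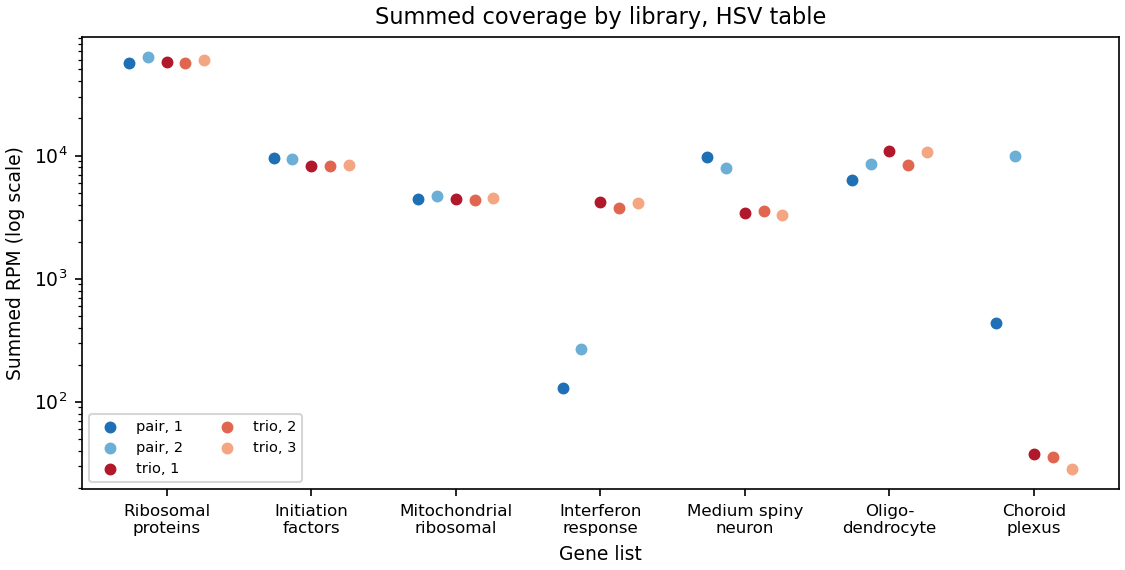
Summed RPM over the deepest events of the measured genes of 7 lists (x axis) in each library (y axis, log scale). The 47 ribosomal protein genes lie between 56753 and 62763 in all 5 libraries, whereas the interferon response list stands at no more than 270.5 in the pair and at least 3754 in the trio and the choroid plexus list spans 28.5 to 9967.

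Other genes of translation were read from lists given as counts of called genes, beside 22.7% of all genes called, 9.49% as lower and 13.2% as higher. Of 44 mitochondrial ribosomal proteins, which build a separate ribosome in mitochondria, 1 was called higher (Mrps22) and 0 lower, with a median log2 difference of -0.04. Of 9 elongation factors 1 was lower: Eef1a1, which brings aminoacyl-tRNA to the ribosome, had 10250 and 11230 against 8794, 9309 and 9164 RPM (log2 difference -0.24, SE 0.07, adjusted p = 0.0291, limma). Of 34 initiation factors and poly(A)-binding proteins, 3 were lower and 0 higher. Among these, Eif1, which guards start codon choice, had 1680 and 1624 against 1237, 1163 and 1194 (log2 difference -0.46, SE 0.07, adjusted p = 0.000439, limma), and Pabpc1, which binds the poly(A) tail, 504 and 522 against 388, 410 and 399 (log2 difference -0.36, SE 0.08, adjusted p = 0.00561, limma). In each of these the sets do not overlap.

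Ribosome biogenesis had 1 of 30 measured genes higher (Nop56) and 1 lower: Ubtf, the transcription factor of ribosomal DNA, stood at 143 and 118 against 85.7, 67.6 and 91.8 RPM (log2 difference -0.68, SE 0.15, adjusted p = 0.00564, limma). The list named for the TOR pathway also holds Rps6k kinases, taken by symbol, and regulators of the oligopyrimidine mRNAs. Of its 22 measured genes, 2 were higher and 3 lower. Larp1, which binds the cap of these mRNAs and holds back their translation when TOR is inactive, was higher, at 40.9 and 50.0 against 75.5, 67.3 and 79.5 RPM (log2 difference 0.71, SE 0.15, adjusted p = 0.00489, limma). Cnbp, a zinc finger protein that binds such mRNAs, was lower (log2 difference -0.24, SE 0.08, adjusted p = 0.0496, limma). The others were Rps6k kinases listed by symbol, not by a place in the TOR pathway: Rps6ka2, which was higher, and Rps6ka3 and Rps6ka4, which were lower.

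Exons of these lists were called in 3 events, beside 3.69% of all tested events. In the initiation factors 0 of 45 tested events were called, and in the mitochondrial ribosomal proteins 0 of 50. Of 18 tested events of the elongation factors 1 was called, a 1140-nt exon of Eef1d, included at 61.0% and 45.6% against 65.4%, 62.7% and 64.4% (adjusted p = 0.0389, limma). Among ribosome biogenesis genes it was 1 of 9: in Ubtf a 111-nt exon was included less in the trio, at 54.8% and 50.2% against 41.4%, 39.7% and 44.2% (adjusted p = 0.033, limma). In the TOR list it was 1 of 20: in Tsc2, which restrains TOR, a 129-nt exon was also included less, at 77.8% and 70.9% against 53.6%, 61.7% and 43.4% (adjusted p = 0.0416, limma). These exons lie between 39.7% and 77.8% inclusion, a range in which no ribosomal protein exon of sufficient depth was found.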

How the data were processed

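RNA from nucleus accumbens was analysed from 2 tables of exon skipping. The submitters' processing notes name STAR 2.4.1d, Bowtie2, mm9 and mm10 for the whole series without a role for each, and the event caller was not stated. Read counts were deposited as whole numbers joined in cells with no name for a library: 5 libraries in 1 table and 32 runs in the other have no sample attached. A further 48 samples (ChIP, input, CUT&RUN) are not analysed here. The authors' p-values (FDR, padj) and their difference score (dPSI) were taken as deposited. Inclusion levels were recomputed and matched the deposited ones within 0.001 in 100% of values. In the HSV table the form length is the exon length plus 150 for inclusion and 150 for skipping. Symbols were found for 9430 of 9542 Ensembl IDs of that table, and coordinates are printed 1-based.

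Inclusion was tested with limma 3.58.1 in R 4.3.3 on its logit (0.5 added to each count), weighted by reads. An event entered with 20 reads per library on average and 10 reads in its rarer form. In the weighted fit the spread is shared across events, so an event's own spread between libraries does not enter its p separately. Coverage, the reads over the deepest event of each gene with 20 reads on average, was scaled by TMM (trims 0.3 and 0.05) and tested with limma on log2 values (0.5 added, spread trended on coverage), so folds of genes with few reads are understated. Tests were two-sided, fitted on the whole table, adjusted with Benjamini-Hochberg and called at 0.05. The fits were tested on simulated data. Runs of the dCas9-SET2 experiment share sample names and are not independent, so only the authors' values and pooled counts are given for them.

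Named genes are the called ones, the 10 events with the lowest and the 3 with the highest inclusion at 20 reads, the 5 genes with most and the 3 with fewest reads, the events with the lowest pooled inclusion in the dCas9-SET2 table and the paralogues; others were named after their values were seen. Members and lists were chosen with earlier results of these data known. Alternatives covered each library left out, filters, weights, scaling and the added count.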

Additional observations from a re-analysis of the deposited data

How the results depend on the processing

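No paired analysis was possible because the columns carry no replicate numbers. Leaving out each library in turn gave 0 to 1 called inclusion events (0 without the first of the pair), 0 to 7 genes with changed coverage (7, all lower, without the first of the pair, 4, of which 2 higher, without the second, and 0 without any 1 library of the trio) and a median inclusion of 99.943 to 99.964%. In these fits a library left alone in its set is assumed to vary like the others. Without weights 0 inclusion events were called in place of 1, and none in the whole table. Scaling by the total of all listed reads left 1 coverage call in place of 3, moving the median of all genes to 0.049 and that of the ribosomal protein genes to 0.02 (log2), and a spread not trended left 0. Inclusion reads over all reads, with no length correction, gave a median of 99.975%. The causes were not tested. The logit difference of the Rps9 exon stayed positive, from 0.64 to 1.49. With all 16 runs of the dCas9-SET2 table the pooled difference of Rpl14 changed from -0.05 to 0.03 percentage points, an alternative chosen after seeing the data, and the other 5 kept their sign. In that table the median depth per run was 5 to 289 reads over the 6 events, which limits what single runs can show.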
